A study of Rattus norvegicus with 12 samples.

Results

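The genes described here encode the enzymes that remove superoxide, peroxides and reactive electrophiles, together with the enzymes that make and recycle glutathione and the NRF2 switch that sets many of them. They were chosen by name: the Gpx, Prdx, Sod, Gst, Mgst, Txn, Txnrd and Glrx families, plus Cat, Nqo1, Hmox1, Gclc, Gclm, Gsr, Gss, Srxn1, Nfe2l2 and Keap1. The rule found 61 rows of 24648 in the count table, with 60 distinct symbols, because Gstm3 stood on 2 rows. Of these rows, 55 carried enough reads to be tested. The 6 others were Gpx5, Gpx6 and Gstm5, with no read in any library, and Gsta2, Gsta3 and Gstm6, with few reads.

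In muscle, mitochondria and membrane oxidases release superoxide, which superoxide dismutases turn into hydrogen peroxide. Catalase, the glutathione peroxidases and the peroxiredoxins remove the peroxide. For the glutathione peroxidases and the peroxiredoxins, glutathione, thioredoxin and glutaredoxin supply the electrons, which come in the end from NADPH. NRF2, the product of Nfe2l2, is held down by KEAP1 and, when released, binds antioxidant response elements near genes such as Nqo1, Gclc, Gclm and many glutathione S-transferases.

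RNA-seq was done on skeletal muscle of male rats at postnatal day 540, the offspring of dams on a control diet or under maternal protein restriction, which was a diet with 6% protein through pregnancy and nursing. The 12 libraries fall by the numbers in their titles into 4 groups of 3: controls 3, 8 and 9 and restriction 12, 13 and 15 in set 1, and controls 23, 28 and 29 and restriction 32, 33 and 35 in set 2. The series text names the soleus and the extensor digitorum longus but the labels tie neither to a library, so the sets keep their numbers. Nothing in the labels names an animal, dam or litter or gives a strain, so every SE and p-value below measures the spread between libraries, which may be partly technical.

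All 10 slow fibre markers tested were lower in set 2 and all 11 fast fibre markers were higher. Total counts ran from 22829692 to 38313704 per library. Control 23 of set 2 stood apart, with the lowest TMM scaling factor (0.815), 5.83% of its counts in mitochondrial tRNA genes against 1.62% to 4.78% in the other 11 libraries, and summed red blood cell markers of 2195 CPM against 388 to 857 CPM elsewhere. CPM is the count scaled to the TMM-corrected library size, and since it is not corrected for gene length, levels are compared between libraries and never between genes. Calls between the sets that change without control 23 are given with and without it.

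The RefSeq promoter table of the GRCr8 build, which is not the build of the counts, held 52 of the 60 symbols. Each promoter spans 250 bases before to 50 bases after the annotated gene start. The core of the antioxidant response element, TGACNNNGC read on both strands, was found for 15 of the 52 members (28.8%), against 12.1% of all 33469 promoters in the table. A member counted if any of its promoters held a match, and 5 members had more than 1 promoter, with 60 promoters in all. The share over the table counts single promoters, so the shares are in unlike units and favour the members. The matches of 7 members are shown because these genes stand on different sides of the comparison between the sets: Gclm and Sod2 were higher in set 2, Gstz1, Prdx1 and Nfe2l2 were lower, and Gstp1 and Txnrd1 passed in neither direction. Capitals mark the core, with 10 bases on each side where the window allows, 5′ to 3′ on the strand of the gene; where the capitals start with GC, the core lies on the other strand.
Gclm (chr2:213031885-213032184, + strand): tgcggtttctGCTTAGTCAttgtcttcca
Sod2 (chr1:50050119-50050418, - strand): ggcgctgccgGCAGGGTCAgcgcctagct
Gstz1 (chr6:112525356-112525655, + strand): cttgtccgctGCCCCGTCAaggagtcgta
Prdx1 (chr5:135383656-135383955, + strand): cagggaaagcGCTGAGTCAtaccccgccg
Nfe2l2 (chr3:81028950-81029249, - strand): gactagccatTGACGCCGCctc
Gstp1 (chr1:210769656-210769955, - strand): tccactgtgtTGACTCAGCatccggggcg
Txnrd1 (chr7:22755855-22756154, - strand): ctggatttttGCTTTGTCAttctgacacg

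The coordinates are those of the whole promoter window. Each match is a run of letters and not a shown binding site. The share with a core was 3 of 21 among members lower in set 2, 2 of 7 among those higher and 7 of 18 among those tested without a call. The bases before the start of Gpx1 and Nqo1 are printed because these genes had the smallest p-values of the members between the sets. Gpx1 held neither the core nor the letters TATAAA of the TATA box, which were also read on both strands. These letters stood somewhere in the window for 14.2% of all promoters and, over any promoter of a member, for 11 of 52 members. A match at any position counted, so it is not a shown TATA box. Nqo1 held TATAAA, in capitals, at position -59 and no core in this window.
Gpx1 (chr8:117905212-117905461, + strand): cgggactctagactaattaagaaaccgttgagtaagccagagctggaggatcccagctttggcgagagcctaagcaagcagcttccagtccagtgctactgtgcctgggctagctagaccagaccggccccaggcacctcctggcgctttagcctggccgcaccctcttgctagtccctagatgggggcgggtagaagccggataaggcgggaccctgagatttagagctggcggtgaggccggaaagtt
Nqo1 (chr19:52220268-52220517, - strand): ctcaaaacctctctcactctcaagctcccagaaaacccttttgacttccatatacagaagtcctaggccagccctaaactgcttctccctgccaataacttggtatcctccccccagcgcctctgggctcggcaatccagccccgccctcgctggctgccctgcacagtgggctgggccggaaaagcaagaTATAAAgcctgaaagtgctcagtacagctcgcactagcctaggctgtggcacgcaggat

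Between the sets, most antioxidant genes that differed were lower in set 2, the set with fast fibre transcripts. Of the 55 tested, 22 were lower and 7 were higher in set 2 (edgeR's quasi-likelihood test, Benjamini-Hochberg adjusted p under 0.05 over 14225 genes, used for every adjusted p below). Over all genes tested, 39.5% passed, 19.6% lower and 19.9% higher. The median log2 fold change was -0.39 over the members and -0.01 over all genes, and 37 of 55 members had a value below 0 (50.3% of all genes). Scaled by library size alone, which moved the median of all genes to -0.12, the split was 29 lower and 3 higher, the calls of Gstm4, Gclm, Keap1 and Sod2 were lost, and Glrx3, Gstp1, Gsto2, Gsta1, Sod1, Prdx6 and Prdx4 were called lower. At least 2-fold differences were found in 9 members lower in set 2 (9.75% of all genes) and in 2 higher (8.03%), counts that include Gsta5 and Gstt4 with their few reads. In 8 members every set 2 library lay below every set 1 library (9.77% of all genes), and in 4 every one lay above (8.97%).

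**Figure D1:**
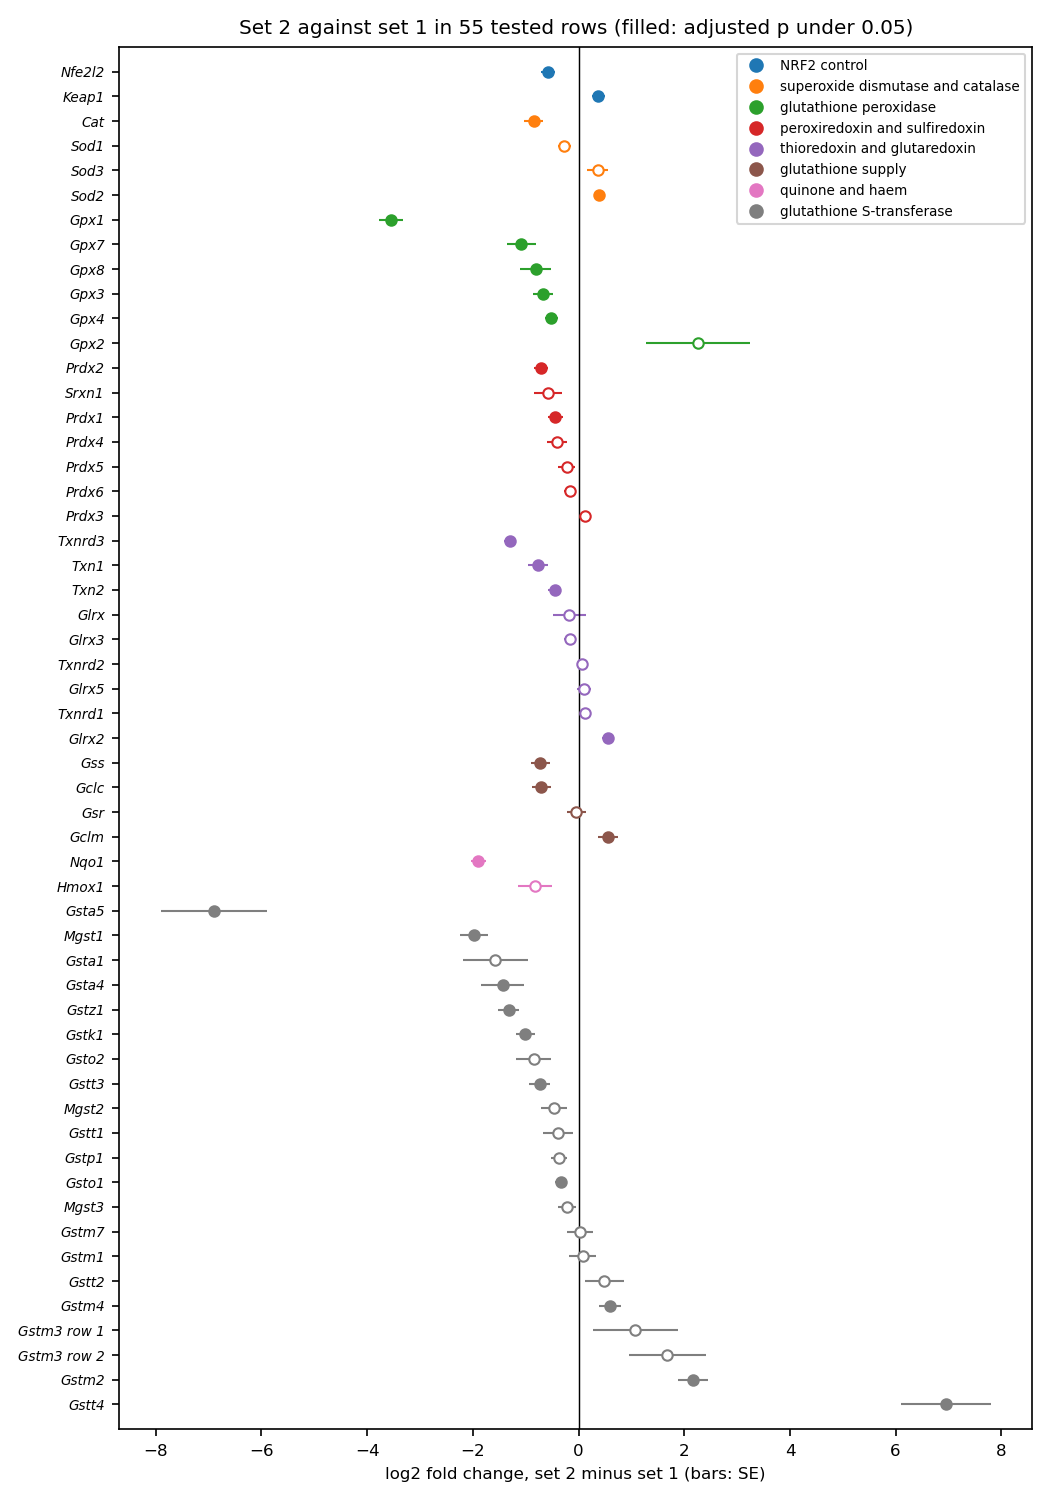
Log2 fold change of set 2 minus set 1 for the 55 tested rows (x axis), grouped and coloured by role, with SE as bars; filled points passed at adjusted p under 0.05. Of the filled points, 22 lie left of 0 and 7 right of it, and Gpx1 at -3.55 lies farthest left among the peroxidases, while the values of Gsta5 and Gstt4, with 0 and 2 counts in a set, depend on the prior count of the fit and are no measure of size.

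The glutathione peroxidases, which reduce peroxides with glutathione, moved in 1 direction where they passed: 5 of 6 tested were lower in set 2 and none was higher. Gpx1, the abundant selenium-containing peroxidase of cytosol and mitochondria, had 1267, 1207 and 1546 CPM in the set 1 controls and 1443, 1386 and 1199 CPM in the set 1 restriction libraries. In set 2 its levels were 254.9, 97.4 and 120.5 CPM in controls 23, 28 and 29 and 75.6, 107.7 and 68.1 CPM in the restriction libraries. The sets did not overlap, and control 23 was the highest of set 2. The log2 fold change of Gpx1 was -3.55 ± 0.23 (SE), or 11.7-fold lower, with an adjusted p of 4.71e-08. It ran from -3.82 to -3.42 with each library left out in turn.

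Gpx4, which reduces lipid peroxides in membranes, lay between 687 and 771 CPM in set 1. In set 2 it was at 755 CPM in control 23 and between 458 and 496 CPM in the 5 other libraries. Only control 23 overlapped with set 1, and Gpx4 was lower by -0.51 ± 0.12 on the log2 scale (adjusted p = 0.0043). The secreted Gpx3 ranged from 295 to 556 CPM in set 1 and from 205 to 392 CPM in set 2, with overlap and a log2 fold change of -0.67 ± 0.19 (adjusted p = 0.0119). Gpx7, an enzyme of the endoplasmic reticulum, had 6.12, 2.62 and 6.14 CPM in the set 1 controls and 3.41, 5.14 and 5.74 CPM in the set 1 restriction libraries. In set 2 it had 2.90, 1.89 and 2.77 CPM in the controls and 1.48, 2.81 and 2.01 CPM in the restriction libraries, overlapping with set 1 through control 8 alone. Gpx7 was 2.12-fold lower in set 2 (-1.08 ± 0.27, adjusted p = 0.00615). Gpx8, in the same compartment, had a log2 fold change of -0.81 ± 0.30 (adjusted p = 0.0412) and kept its call in 2 of 12 fits that each left out 1 library. Gpx2, known from the gut, had 14 counts in set 1 and 65 in set 2 and did not pass (adjusted p = 0.0835).

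Among the enzymes that handle superoxide and hydrogen peroxide directly, the mitochondrial dismutase was higher in set 2 and catalase was lower. Sod2, the manganese enzyme of the mitochondrial matrix, lay between 226 and 278 CPM in set 1 and between 291 and 366 CPM in set 2, without overlap. Its log2 fold change was small, 0.39 ± 0.10, with an adjusted p of 0.0084. Cat, the peroxisomal catalase, had a median of 275 CPM in set 1 (203 to 323) and of 144 CPM in set 2 (91.8 to 218), and the ranges overlapped through restriction 35 and control 8. Cat was lower in set 2 by -0.85 ± 0.18 on the log2 scale (adjusted p = 0.00163). The cytosolic Sod1 and the extracellular Sod3 had log2 fold changes of -0.27 ± 0.13 and 0.36 ± 0.20 and did not pass (adjusted p = 0.108 and 0.165). Without control 23, where Sod1 was at 378 CPM against 233 to 258 CPM in the rest of set 2, Sod1 passed at -0.39 (adjusted p = 0.00379), and Sod3 came to 0.071.

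Peroxiredoxins reduce peroxides through a reactive cysteine. Prdx2, the cytosolic form abundant in red blood cells, was at 278, 283 and 304 CPM in the set 1 controls and 330, 315 and 293 CPM in the set 1 restriction libraries. In set 2 it was at 290 CPM in control 23 and at 173, 172, 140, 173 and 170 CPM in the libraries 28, 29, 32, 33 and 35. The log2 fold change of Prdx2 was -0.70 ± 0.14 (adjusted p = 0.000905). Control 23, the library with the highest red blood cell marker sum, was the only one of set 2 within the set 1 range; the part of red blood cells in it was not tested. Prdx1 passed as well (-0.44 ± 0.14, adjusted p = 0.0234) and kept its call in 6 of 12 fits with 1 library left out. The mitochondrial Prdx3 and Prdx5, the secretory-pathway Prdx4, Prdx6 and the sulfiredoxin Srxn1, which repairs overoxidised peroxiredoxins, did not pass, with log2 fold changes from -0.57 to 0.12. Without control 23, Prdx4 passed at -0.57 (adjusted p = 0.0118) and Prdx5 at -0.41 (adjusted p = 0.0129), both lower in set 2.

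In the thioredoxin and glutaredoxin systems 3 of 9 genes were lower in set 2 and 1 was higher. Txnrd3, the thioredoxin and glutathione reductase, was among the steadiest members. It had 36.0, 35.1 and 32.5 CPM in the set 1 controls, 37.6, 39.6 and 37.1 CPM in the set 1 restriction libraries, 14.0, 12.3 and 14.6 CPM in the set 2 controls and 16.8, 13.6 and 17.4 CPM in the set 2 restriction libraries. The sets lay well apart, and Txnrd3 was 2.46-fold lower in set 2 (-1.30 ± 0.10, adjusted p = 4.23e-07). The cytosolic Txnrd1 and the mitochondrial Txnrd2 had log2 fold changes of 0.13 ± 0.11 and 0.06 ± 0.09 and did not pass. Both thioredoxins were lower, the cytosolic Txn1 by -0.76 ± 0.19 and the mitochondrial Txn2 by -0.45 ± 0.13. Glrx2, the mitochondrial glutaredoxin, was the member of this group that was higher, from 17.0 to 22.3 CPM in set 1 and from 24.8 to 37.3 CPM in set 2, without overlap (0.56 ± 0.11, adjusted p = 0.00121). Glrx, Glrx3 and Glrx5 did not pass, and without control 23 Glrx3 passed as lower in set 2 (-0.28, adjusted p = 0.0195).

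Glutathione is made by glutamate-cysteine ligase and glutathione synthetase, and the subunits of the ligase went in opposite directions. Gclc, its catalytic subunit, ranged from 11.4 to 17.9 CPM in set 1 and from 6.49 to 14.3 CPM in set 2, and control 29 alone of set 2 lay within the range of set 1. Its log2 fold change was -0.70 ± 0.18 (adjusted p = 0.00616). Gclm, the modifier subunit, ranged from 4.35 to 10.8 CPM in set 1 and from 7.59 to 13.2 CPM in set 2, with overlap and a log2 fold change of 0.56 ± 0.20 (adjusted p = 0.0368), and its call held in 5 of 12 fits with 1 library left out. Gss, the synthetase, was lower in set 2 by -0.73 ± 0.18 (adjusted p = 0.00555). Gsr, the reductase that regenerates glutathione, had a log2 fold change of -0.04 ± 0.18 and did not pass (adjusted p = 0.876), and its sign changed in 4 of the fits with 1 library left out.

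The transcripts of Nfe2l2 and Keap1, the genes of the NRF2 switch, differed between the sets. Nfe2l2 had 45.1, 46.1 and 35.7 CPM in the set 1 controls and 45.0, 39.5 and 42.0 CPM in the set 1 restriction libraries, against 23.9, 32.3 and 34.8 CPM and 31.5, 21.0 and 27.3 CPM in set 2. The sets did not overlap (-0.57 ± 0.13, adjusted p = 0.0033). Keap1, its inhibitor, lay between 93.3 and 102 CPM in set 1. In set 2 it was at 87.3 CPM in control 23 and between 116 and 157 CPM in the others. Keap1 was higher in set 2 by 0.38 ± 0.12 (adjusted p = 0.0255), with the call held in 8 of 12 fits with 1 library left out.

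Of the classical NRF2 targets among the members, Nqo1, the quinone reductase, had the smallest p. It had 53.7, 45.2 and 46.8 CPM in the set 1 controls and 41.7, 51.3 and 43.5 CPM in the set 1 restriction libraries. In set 2 it had 16.8, 11.1 and 10.4 CPM in controls and 13.1, 10.6 and 14.0 CPM in restriction libraries. Nqo1 was 3.72-fold lower in set 2 (-1.90 ± 0.14, adjusted p = 1.84e-07), without overlap. Hmox1, the inducible haem oxygenase, ranged from 4.92 to 12.4 CPM in set 1 and from 2.41 to 8.54 CPM in set 2. It did not pass (-0.82 ± 0.33, adjusted p = 0.0588), and it passed at 0.0278 with DESeq2.

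**Figure D2:**
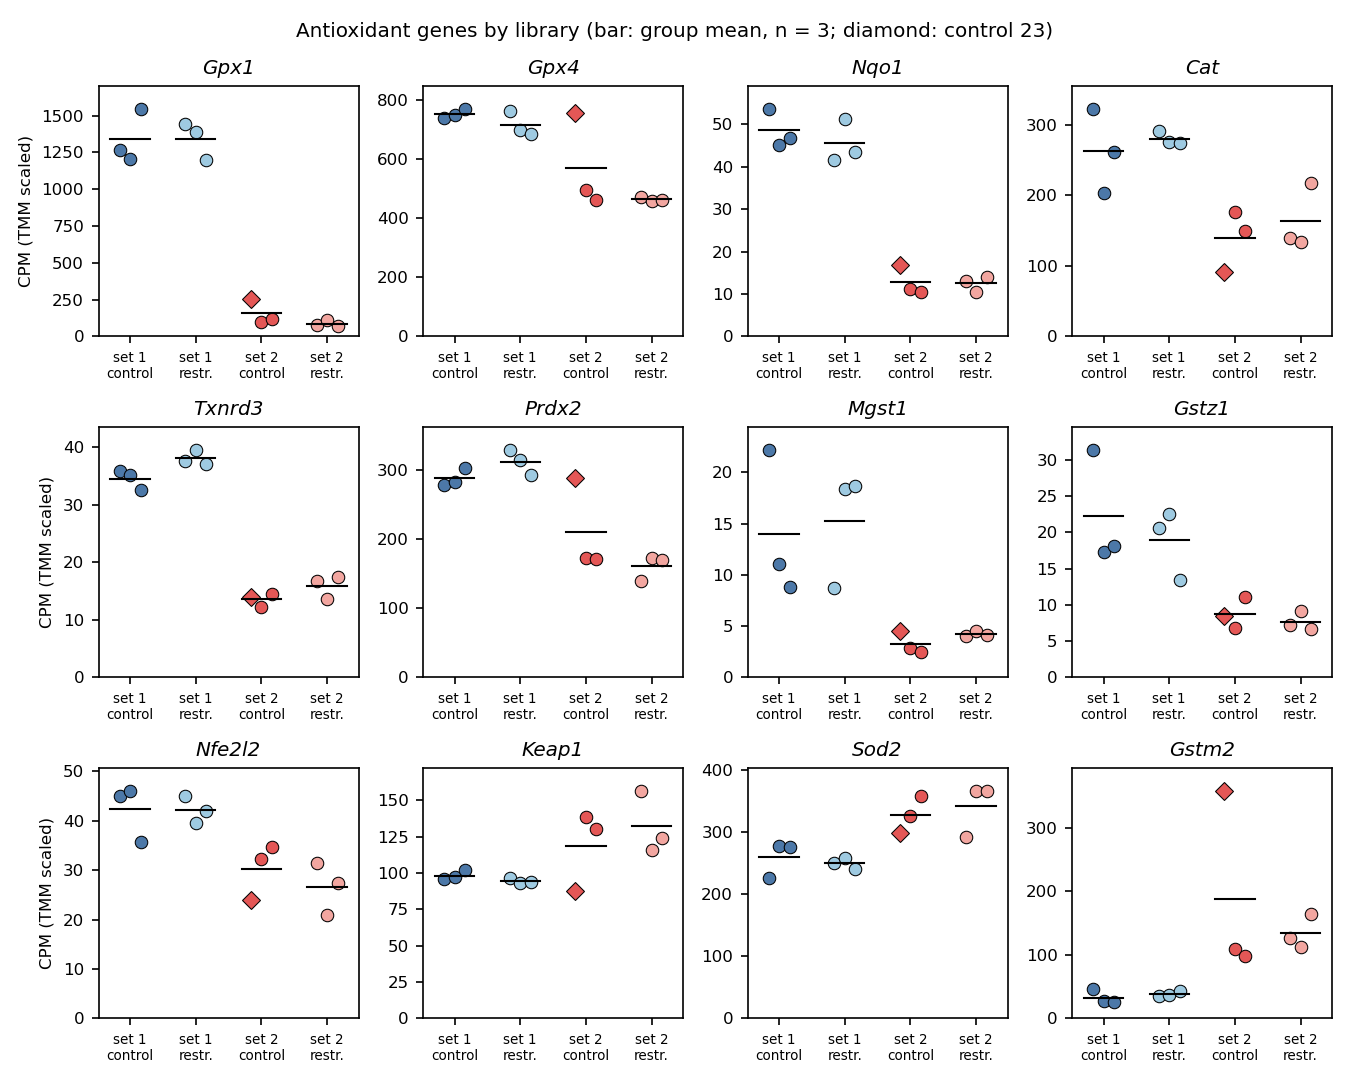
Level of 12 antioxidant genes in each of the 12 libraries (y axis, CPM after TMM scaling, from 0) by group (x axis), with the group mean of 3 libraries as a bar and control 23 as a diamond. Gpx1, Nqo1, Txnrd3, Mgst1, Gstz1 and Nfe2l2 lie lower in every set 2 library than in any of set 1, Sod2 and Gstm2 lie higher, and Gpx4 and Prdx2 overlap through control 23 alone.

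The glutathione S-transferases, which join glutathione to electrophiles, went both ways: of 21 tested rows, 7 were lower and 3 were higher in set 2. The Gsta, Gstm and Gstt genes are clusters of close copies, so reads may be shared or lost between neighbours and their values are uncertain. Gstm2, a mu-class enzyme, had 45.4, 27.2 and 25.4 CPM in the set 1 controls and 35.1, 37.0 and 43.4 CPM in the set 1 restriction libraries. In set 2 it had 358.5, 109.1 and 98.3 CPM in controls 23, 28 and 29 and 126.8, 112.2 and 164.7 CPM in the restriction libraries. No library of the sets overlapped, and Gstm2 was 4.49-fold higher in set 2 (2.17 ± 0.29, adjusted p = 4.77e-05), or 1.73 on the log2 scale without control 23. Other mu-class genes had smaller values: Gstm1 and Gstm7 had log2 fold changes of 0.08 ± 0.25 and 0.03 ± 0.24 and did not pass, and Gstm4 passed at 0.59 ± 0.21 (adjusted p = 0.0349) in 5 of 12 fits with 1 library left out. Without control 23, Gstm1 and Gstm7 changed sign, to -0.28 and -0.20, and Gstm4 came to 0.35 and did not pass (adjusted p = 0.0832).

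Several transferases were lower in set 2. Mgst1, a membrane-bound enzyme, had 8.84 to 22.2 CPM in the set 1 controls and 8.73, 18.4 and 18.7 CPM in the set 1 restriction libraries, against 2.43 to 4.56 CPM in set 2, a 3.93-fold difference without overlap (-1.98 ± 0.27, adjusted p = 5.05e-05). Gstz1, which also takes part in tyrosine breakdown, ranged from 13.4 to 31.4 CPM in set 1 and from 6.68 to 11.1 CPM in set 2 (-1.32 ± 0.20, adjusted p = 0.000118). Gsta4, which acts on the lipid peroxidation product hydroxynonenal, ranged from 2.65 to 7.53 CPM in set 1 and from 0.235 to 2.60 CPM in set 2 (-1.44 ± 0.40, adjusted p = 0.011). Neither gene overlapped between the sets. Gstk1, the mitochondrial and peroxisomal kappa enzyme, was 2.01-fold lower (SE 0.18 on the log2 scale, adjusted p = 0.000437), with control 23 at 39.2 CPM inside the set 1 range of 38.1 to 56.1 CPM and the rest of set 2 at 18.6 to 25.0 CPM. Gstt3 and Gsto1 also passed, at -0.74 ± 0.20 and -0.33 ± 0.11, Gsto1 in 1 of 12 fits with 1 library left out. Gstp1, Mgst3 and Gsta1 did not pass (-0.37 ± 0.15, -0.22 ± 0.17 and -1.57 ± 0.61). Without control 23 they passed as lower, Gstp1 at -0.54 (adjusted p = 0.00124), Mgst3 at -0.39 (adjusted p = 0.0334) and Gsta1 at -2.03 (adjusted p = 0.0232).

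A few transferases were found almost wholly in 1 set at low counts. Gsta5 had 162 counts in set 1 and 0 in set 2, at least 52.7-fold lower against a floor of 3 counts over the set, and within set 1 it had 0.554 to 2.04 CPM in the controls and 0.163 to 0.198 CPM in the restriction libraries. Gsta2 had 40 counts in set 1 and 0 in set 2, at least 13.0-fold lower against the same floor. It had too few reads for the test with all libraries. Without the filter on low counts it passed as lower. It also passed in the fits with 1 library left out, except those without control 8 and without restriction 13. Gstt4 went the other way, with 2 counts in set 1 and 232 in set 2, a ratio of 119 with an exact 95% interval of 32.5 to 987. These bounds and intervals cover counting error alone.

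Marker genes of other cells differed between the sets as well. In bulk tissue, fewer cells of a type and less RNA per cell cannot be told apart. All 11 macrophage markers tested were lower in set 2, with summed levels of 240 to 585 CPM in set 1 and 66.8 to 139 CPM in set 2 and Marco at 0 in every library. Of the fibroblast markers 8 of 9 were lower (507 to 951 CPM against 282 to 400 CPM), and of the adipocyte markers 7 of 10 were lower, with summed levels that overlapped (655 to 1588 CPM against 663 to 1497 CPM). Endothelial markers were higher in 4 and lower in 1 of 10, Schwann cell markers higher in 3 and lower in 3 of 10, and of the red blood cell markers 1 of 8 was higher. Hepatocyte and plasma protein markers summed to at most 1.55 CPM. The part of these cells in the lower antioxidant transcripts of set 2 was not tested.

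Genes that work beside the members were described through 8 lists with 114 distinct genes, of which 109 were tested. In set 2, 25 were higher and 26 lower, or 46.8% in all. Over all genes tested 39.5% passed, 19.9% higher and 19.6% lower. The count of each list given below stands against these shares. Among the NRF2 regulators 5 of 12 were higher and 1 was lower. Btrc and Cul3, both parts of ubiquitin ligases that send NRF2 for breakdown, were higher by 0.95 ± 0.10 and 0.56 ± 0.09 (adjusted p = 7.21e-06 and 0.000208), as was Park7, an oxidation sensor, by 0.74 ± 0.15. Maff, a small partner of NRF2 on DNA, was lower by -1.33 ± 0.38. Keap1, which was also higher in set 2, is the adaptor of the Cul3 ligase. These are transcript levels, and the breakdown or activity of NRF2 protein was not tested.

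Other NRF2 targets were lower in 7 of 17 and higher in 3. Blvrb, a biliverdin reductase, had a log2 fold change of -1.04 ± 0.12, the epoxide hydrolase Ephx1 of -1.78 ± 0.24 and the pentose phosphate enzyme Taldo1 of -0.80 ± 0.12. Abcc4, an exporter, was higher by 2.74 ± 0.18 (adjusted p = 6.88e-08). Of the genes that supply NADPH 5 of 14 were lower and 2 higher; the mitochondrial Nadk2 and Idh2 fell by 0.90 and 0.83 on the log2 scale. Oxidant sources were lower in 8 of 14 and higher in 1, with the NADPH oxidase parts Ncf1 at -2.08 ± 0.30, Nox4 at -1.67 ± 0.30 and Ncf4 at -1.48 ± 0.32, and with the monoamine oxidase Maoa higher by 1.15 ± 0.19. Ncf1 and Ncf4 are phagocyte genes, and macrophage markers were lower in the same libraries. The part of macrophages in the values of these genes was not tested.

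Further genes of glutathione handling were higher in 6 of 20 and lower in 3. Glo1, which with glutathione clears methylglyoxal, was higher by 1.03 ± 0.11 (adjusted p = 6.77e-06) and the oxoprolinase Oplah by 0.82 ± 0.12, whereas Ltc4s, which joins glutathione to a leukotriene precursor, was lower by -2.71 ± 0.32. Other selenoproteins were higher in 4 of 13 and lower in 1. Selenok and Selenoo were higher by 0.94 ± 0.10 and 1.05 ± 0.20, and Selenom was lower by -1.49 ± 0.21. The machinery that inserts selenium had 1 of 6 lower, Scly (-0.42 ± 0.13), and the remaining thiol repair genes had 5 of 16 higher and 1 lower, with Oxr1 at 0.89 ± 0.11 and Nxn at 0.98 ± 0.14.

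**Figure D3:**
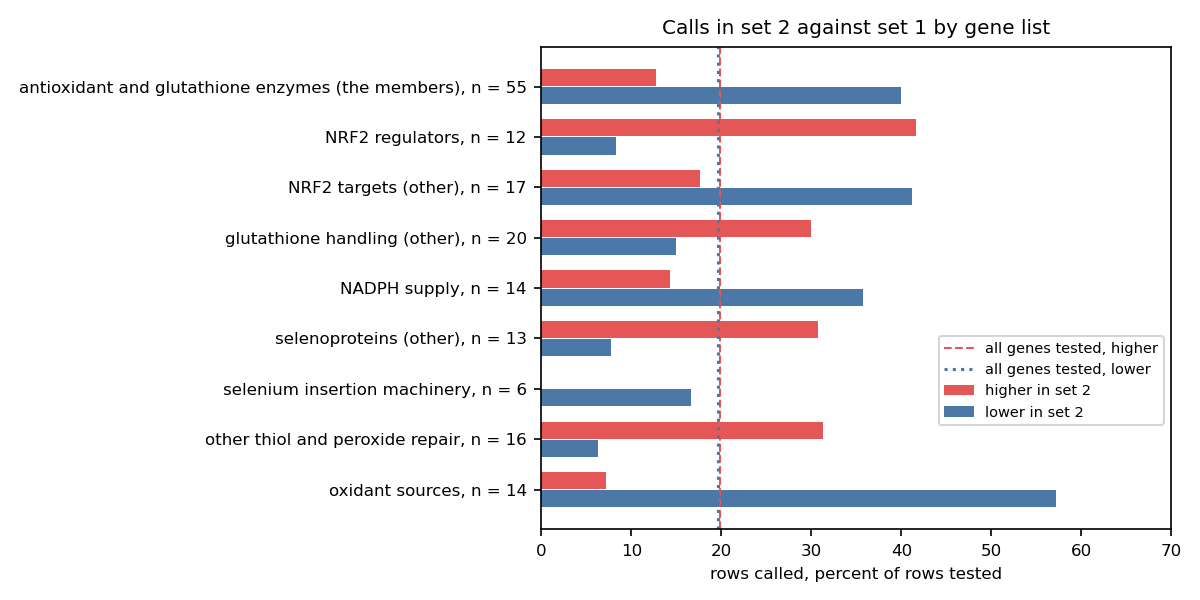
Share of tested rows that passed as higher (red) or lower (blue) in set 2, in percent (x axis), for the antioxidant genes and 8 lists of neighbouring genes (y axis, n tested). Dashed and dotted lines mark 19.9% higher and 19.6% lower over all genes; the members (22 lower, 7 higher), other NRF2 targets, NADPH supply, the selenium machinery and oxidant sources have a longer blue than red bar, and the other 4 lists a longer red one.

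Under maternal protein restriction none of the 55 members passed the threshold, in set 1, in set 2, averaged over both sets, or in the difference between the sets. Over all genes 0.00703%, 0%, 0.00703% and 0% passed in these 4 comparisons. DESeq2 called 38, 40, 55 and 30 genes and limma-voom 3, 0, 0 and 0, with 0 members among them in each. At an unadjusted p under 0.05 there were 2 members in set 1 (7.54% of all genes), 4 in set 2 (8.59%), 2 for the mean (7.83%) and 6 for the difference (9.5%). None of the 109 genes of the 8 lists passed for the mean over the sets either; the smallest adjusted p there was 0.376, for Ltc4s at 1.23 ± 0.31 and for Selenow at -0.80 ± 0.20.

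In set 1 the member with the smallest p was Gsta5, at 1.88, 0.554 and 2.04 CPM in the controls and 0.198, 0.192 and 0.163 CPM in the restriction libraries, without overlap; the log2 fold change was -2.99 ± 0.88 and did not pass (adjusted p = 0.528). Gstm7, another mu-class transferase, was at 93.1, 53.5 and 36.4 CPM in the controls and 112, 104 and 137 CPM under restriction (0.95 ± 0.35, adjusted p = 0.554). Its groups did not overlap either, and its log2 fold change ran from 0.69 without control 9 to 1.40 without control 3. Gpx8 followed at 0.88 ± 0.41, and Gclc and Gclm, the subunits of the first enzyme of glutathione synthesis, at -0.49 ± 0.25 and -0.54 ± 0.28. Gpx8 came to 0.58 without restriction 13, and Gclm to -0.34 without control 3. Glrx2 was at 17.0, 18.4 and 17.9 CPM in the controls and 22.1, 22.3 and 19.2 CPM under restriction (0.26 ± 0.16). None of these passed.

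Groups that did not overlap in set 1 were found for 8 members higher under restriction (7.97% of all genes), namely Gpx8, Gstm7, Gsto1, Prdx1, Sod3, Glrx2, Txnrd2 and Txnrd3, and for 2 lower (9.6% of all genes), Gsta5 and Gclc. The total counts of the 3 set 1 restriction libraries were all below those of the controls, and their mitochondrial tRNA share was higher, 4.12% to 4.78% against 2.22% to 2.89%. Summed fast fibre markers were also higher, at 9569 to 11870 CPM under restriction against 4140 to 8003 CPM in the set 1 controls. Of the 11 fast fibre markers 4 had values below 0, and 0 passed. Summed slow fibre markers overlapped, at 93650 to 105300 CPM against 94040 to 108600 CPM. The part of depth, of these tRNA reads and of fibre type in the values of set 1 was not tested.

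In set 2 the smallest p belonged to Gpx1, at 254.9, 97.4 and 120.5 CPM in controls 23, 28 and 29 against 75.6, 107.7 and 68.1 CPM under restriction (-0.91 ± 0.29, adjusted p = 0.499). The groups overlapped, and without control 23 the log2 fold change was -0.38. In set 1 the diet effect on Gpx1 was 0.0028 ± 0.29 on the log2 scale. Gstm3, on the first of its rows, came next at 3.08 ± 1.17, which rested on restriction 33 with 12.5 CPM against 0.22 to 0.671 CPM in the other restriction libraries; without it the value was -0.25. Txn2 was at 288, 193 and 188 CPM in the controls and 174, 167 and 158 CPM under restriction, without overlap, at -0.42 ± 0.18, or -0.19 without control 23. Gsta1, Glrx5 and Prdx1 completed the 6 smallest p-values at -2.10 ± 0.92, -0.40 ± 0.19 and -0.42 ± 0.20, and moved to -1.21, -0.15 and -0.10 without control 23. Gstt1 and Txn2 were the only tested members whose groups did not overlap, both lower under restriction (5.72% of all genes), with 0 higher (7.01%).

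Control 23 was the extreme library for many members in set 2. It was the highest of the 6 set 2 libraries for 32 of 55 members (58.2%) and the lowest for 8 (14.5%), against 27.6% and 29% of all tested genes. The median member lay 0.36 above its group mean on the log2 scale in control 23, and the median of all tested genes lay at -0.02. The members it led included Gpx1, Gpx4, Prdx1 to Prdx5, Sod1, Txn1, Txn2, Gstp1, Gstk1, Gstm1, Gstm2 and Nqo1, while Cat, Hmox1, Gsr, Gclc, Gpx3, Txnrd1, Keap1 and Gpx2 were at their lowest there. Its red blood cell markers summed to 2195 CPM, against 706 and 857 CPM in the other set 2 controls. The set 2 restriction libraries lay below all of these controls, at 388 to 540 CPM, though 0 of these markers passed for the diet in set 2. The part of blood in the values of control 23 and in the diet values of set 2 was not tested.

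**Figure D4:**
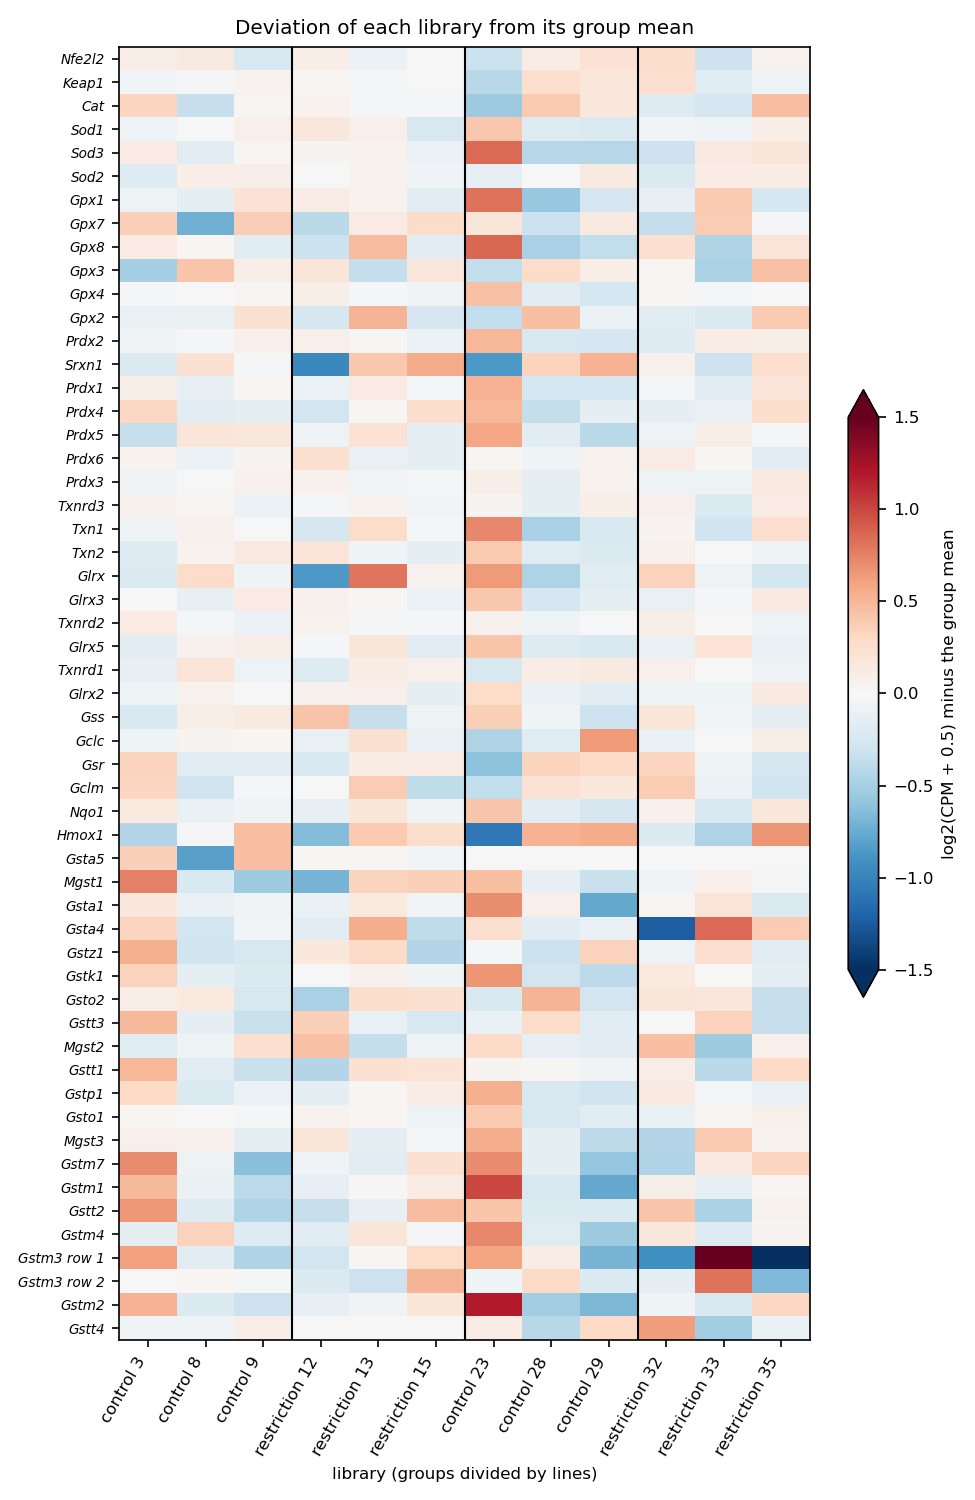
Deviation of each of the 12 libraries (x axis, groups divided by lines) from its group mean for the 55 tested rows (y axis, ordered by role), as log2(CPM + 0.5) minus the group mean, red above and blue below, with the colour scale ending at 1.5 either way. The column of control 23 is red for most rows (median 0.36) and blue for Hmox1, Gsr, Cat and Keap1, and restriction 33 stands out in the first row of Gstm3.

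Counted without control 23, 41 of 55 members below 0 for restriction against control in set 2 became 33 of 56 (all genes: 51.3% and 48.8%), and the members' median log2 fold change went from -0.20 to -0.03. The sign changed for 14 members, a count not made over all genes, among them Gstm2 (-0.49 to 0.38), Gstm1 (-0.22 to 0.47), Gstk1 (-0.20 to 0.22) and Txn1 (-0.38 to 0.069). Over both sets, 36 of 55 members were below 0 with all libraries (51.8% of all genes) and 26 of 56 without control 23 (49.5%). In set 1, 22 of 55 were below 0 (50.4% of all genes), with a median of 0.10. With 2 controls left in set 2, groups did not overlap for 8 members higher under restriction (14.5% of members, 12.5% of all genes). They were Gpx8, Gstm1, Gstm2, Gstm4, Gstk1, Gstt2, Mgst1 and Sod3. Groups did not overlap for 7 members lower (12.7% of members, 12.4% of all genes). These were Nfe2l2, Srxn1, Hmox1, Gclm, Txn2, Txnrd1 and Gstt1.

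In the comparison of the sets without control 23, 30 members were lower in set 2 and 6 were higher (44.1% of all genes called, 22.5% lower and 21.6% higher), and 28 of the 29 members called with all libraries were called again, with Gstm4 lost. Members with every set 2 library below every set 1 library went from 8 to 19 (13.8% of all genes), and now included Gpx4, Prdx1, Prdx2, Sod1, Txn1, Txn2, Gss, Gstk1 and Gstp1. Both counts without control 23 that concern overlap were chosen after its values had been seen.

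Averaged over the sets, Srxn1 had the smallest p among the members for the diet, at 22.4, 30.3 and 25.3 CPM in the set 1 controls and 8.29, 22.3 and 24.8 CPM under restriction, and at 9.44, 22.3 and 25.5 CPM in the set 2 controls and 11.7, 8.91 and 13.4 CPM under restriction. The groups overlapped in both sets, through restriction 15 in set 1 and control 23 in set 2. Its log2 fold change was -0.63 ± 0.27 (adjusted p = 0.589), from -0.78 without control 23 to -0.45 without restriction 12. Gpx1 followed at -0.45 ± 0.21 and -0.19 without control 23. Gclm and Gclc stood at -0.40 ± 0.20 and -0.33 ± 0.18, Txn2 at -0.25 ± 0.13 and Glrx5 at -0.24 ± 0.13, and none passed. Gclc came to -0.12 without control 29, and Txn2 and Glrx5 to -0.14 and -0.11 without control 23.

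**Figure D5:**
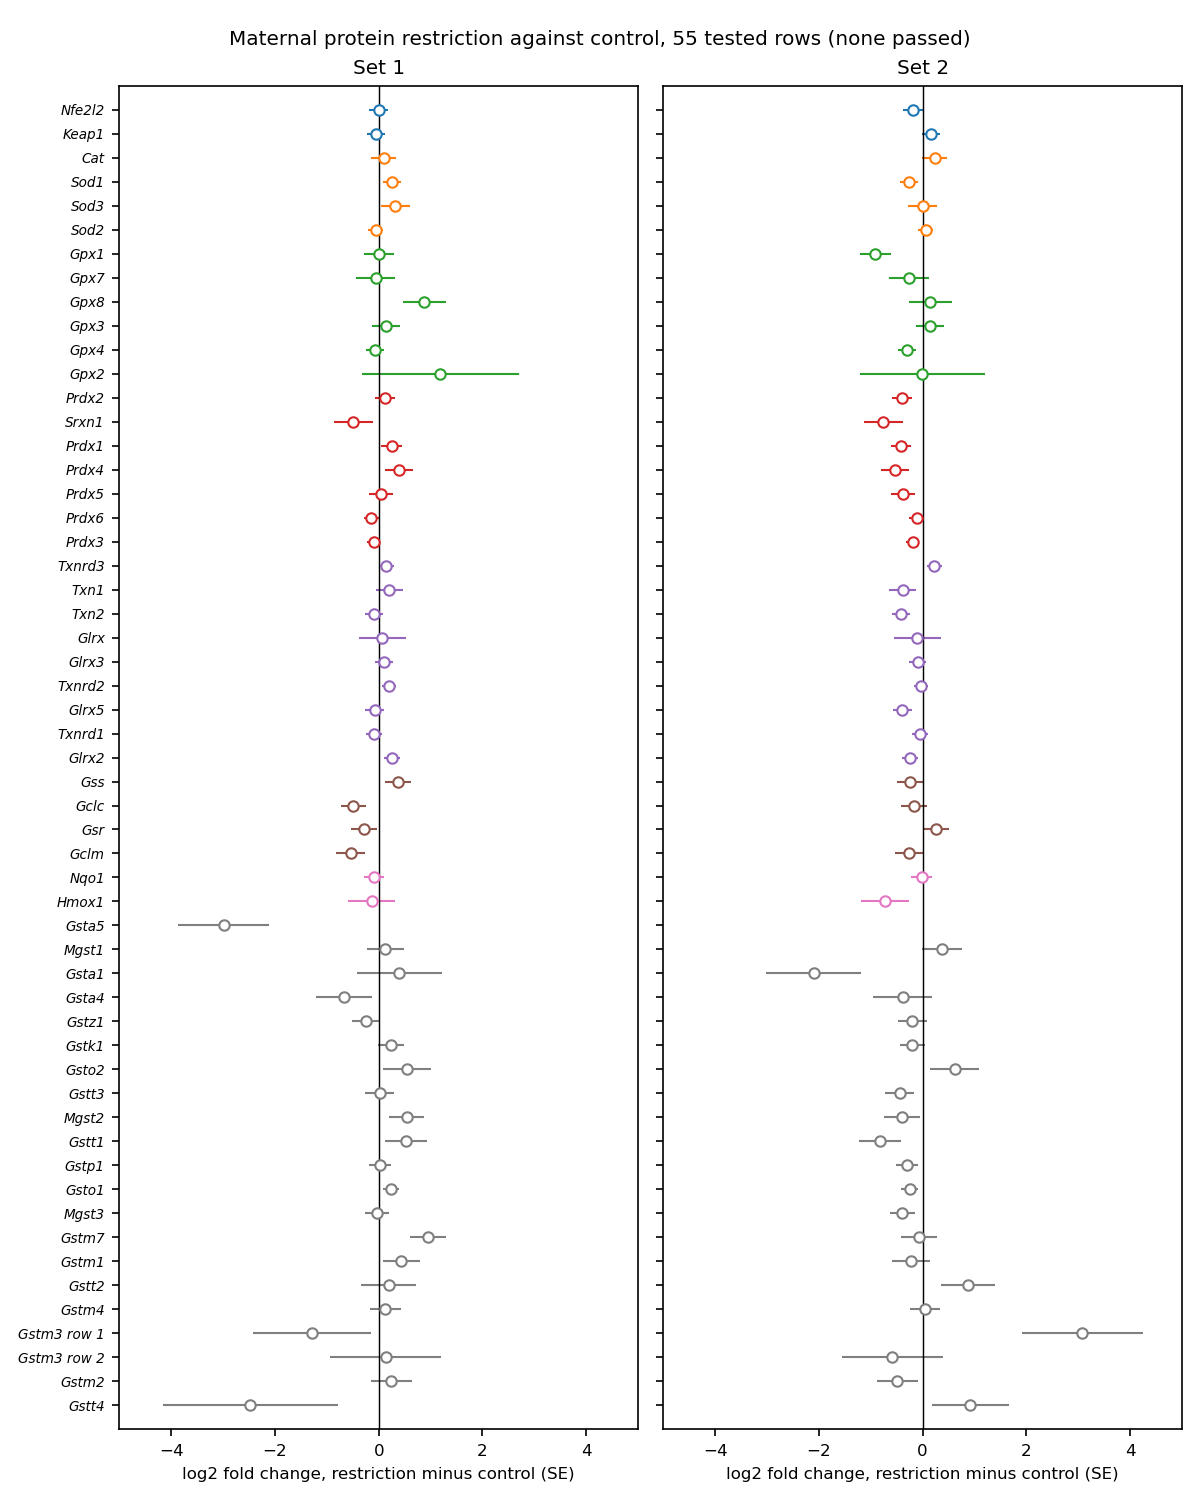
Log2 fold change of restriction minus control in set 1 (left) and set 2 (right) for the tested rows (x axis), ordered and coloured by role as in the plot of the sets, with SE as bars. No row passed in either set; Gsta5, at 0 in all of set 2, is not drawn there, and 22 rows in set 1 and 41 in set 2 lie below 0.

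The effect of the diet did not differ between the sets past the threshold for any member. Values below 0 stood at 36 of 55 members, against 50.2% of all genes, with a member median of -0.26. Without control 23 they stood at 33 of 56 (49.3% of all genes), with a member median of -0.06. The first row of Gstm3 had the smallest p for the difference (4.36 ± 1.62, adjusted p = 0.463) and came to 1.03 without restriction 33. Prdx4, Prdx1 and Glrx2 had higher means under restriction in set 1 and lower ones in set 2, with differences of -0.92 ± 0.37, -0.67 ± 0.28 and -0.50 ± 0.22. Gstt1 had a difference of -1.35 ± 0.57 and Gpx1 of -0.91 ± 0.41. Without control 23 those of Prdx4, Prdx1, Glrx2 and Gpx1 were -0.62, -0.35, -0.35 and -0.38.

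By the median over the 4 groups, the coefficient of variation was 19.7% for the median of the 55 members and 20.3% for that of all tested genes. Such a median gives little weight to 1 deviant group. In control 23 the median absolute deviation from the group mean was 0.42 on the log2 scale for the members and 0.29 for all genes. In control 9 of set 1 it was 0.097 for the members and 0.16 for all genes. Gpx4 (3.87%), Txnrd2 (5.16%), Gsto1 (5.67%) and Prdx3 (6.25%) were the steadiest by the median over the 4 groups, though Gpx4 lay 0.44 above its group mean in control 23. The rows of Gstm3 (69.1% and 70.6%) and Gpx2 (121%), all at few counts, varied most. The members took 0.604% to 0.674% of all counts in set 1 and 0.353% to 0.442% in set 2, and 0.463% to 0.524% and 0.345% to 0.421% without Gpx1.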

How the data were processed

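Per the labels, RNA came from Trizol extraction and the library kit was TruSeq RNA. That kit keeps no strand, so reads from antisense genes cannot be told apart. The authors deposited raw counts per gene; per the submitters' processing notes the tools included Trimmomatic, HISAT2, featureCounts and DESeq2 with build Rnor_6.0, the versions being not given in the sources used here. A normalized table was not used. From the counts, filterByExpr kept 14225 of 24648 rows, and 574 rows whose name stands on more than 1 row were kept apart. A model with 4 group means was fitted to the 12 libraries in edgeR 4.0.16 (R 4.3.3) after TMM scaling, the quasi-likelihood F test gave p, and p was adjusted by Benjamini-Hochberg over the rows kept, 0.05 being the threshold; the code was tested on simulated data. DESeq2 1.42.0, limma 3.58.1, other scalings and filters, a block on the title number and each library left out were alternatives. Libraries of a group differed beyond counting noise (chi-square per degree of freedom of 25.9 to 157).

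The members and gene lists were chosen with earlier results of these data known. Any member could be named; values were given in full for called members at least 2-fold apart at a mean of 1 CPM or more and for core genes, and for the diet for the 6 smallest p-values; of each neighbouring list up to 4 called genes with the smallest p. Promoter sequences are RefSeq's (GRCr8), used for letters and not for counts.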

Additional observations from a re-analysis of the deposited data

How the results depend on the processing

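With 1 library left out at a time, 24 to 36 members were called between the sets, 4 to 8 of them higher and 19 to 30 lower, and 23 of the 29 held in all 12 fits; the exceptions were Gpx8, Gstm4, Gsto1, Gclm, Keap1 and Prdx1. DESeq2 and limma-voom each called 32 members, and all 29 were among them. Library size alone as scaling left 3 members higher. Among the fits with 1 library left out, the lowest count of higher members, 4, came without restriction 32. Without filter 30 were called, and 28 with a mean of at least 1 CPM. Counts of lost calls also reflect fewer libraries. Of the listed neighbouring genes DESeq2 called 2 for the diet averaged over the sets, where edgeR called 0; the cause was not tested. Without control 23, chosen after seeing the data, members that did not overlap were 19 lower between the sets (13.8% of all genes). For the diet in set 2 they were 8 higher (12.5% of all genes) and 7 lower (12.4%). Fewer libraries alone make such counts larger. Among the results followed under every alternative (the core and at least 2-fold genes between the sets, the 6 smallest p-values for the diet), reversed signs were those of Gsr, to 0.065 without control 3, 0.01 without restriction 15, 0.074 without control 23 and 0.027 without restriction 35 (range -0.12 to 0.074), and of the first row of Gstm3 for the diet in set 2, to -0.25 without restriction 33 (range -0.25 to 3.77). Over all members, leaving out control 23 changed the sign of 4 between the sets, 14 for the diet in set 2, 13 for its mean and 11 for the difference. Sign changes were not counted over all genes, so these counts do not show whether the members differ from other genes. Of the other alternatives for single genes 850 kept sign and side of the threshold, 14 lost their call and 8 gained one. With 3 libraries a group, depth limits the members under about 1 CPM, and the diet comparisons rest on few libraries.

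The title numbers of the sets differ by 20, and the labels do not say that this pairs animals. Same-numbered libraries deviated together with correlations from 0.0995 to 0.230, and for 6 of 6 pairs the own number was the highest, a hint of pairing from the data and not from the design. With the replicate block on that number 32 members were called between the sets, 7 higher and 25 lower, adding Gstp1, Hmox1 and Prdx4 as lower, and 0 for the difference in the diet effect. As a random term, with a consensus correlation of 0.133, it called 0 for the diet.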
